A study of Mus musculus with 9 samples.

Results

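The genes described here encode 10 enzymes that build or break down the galactolipids and very-long-chain lipids of myelin: Ugt8a, Gal3st1, Fa2h, Cers2, Elovl1, Elovl7, Aspa, Galc, Arsa and Ugcg. They were chosen by name, and all 10 were found among 23798 genes, in 14 rows of the deposited table. The samples were mouse brain RNA labelled as oligodendrocyte, with 3 libraries from wild-type (WT) mice given placebo, 3 from mice of the genotype TG given placebo, and 3 from TG mice given the agent NM-101. The series title speaks of alpha-synuclein that comes from neurons and of its effects in oligodendrocytes, but the labels do not name the transgene, its promoter, or the age or number of the mice, and they do not describe NM-101. RNA was taken with a kit for fixed, paraffin-embedded tissue and sequenced from the 3' end of transcripts (QuantSeq).

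Oligodendrocytes wrap axons in a membrane that is unusually rich in galactosylceramide and its sulfated form, sulfatide. Ugt8a adds galactose to ceramide, Gal3st1 adds the sulfate, and Fa2h puts a hydroxyl group on the fatty acid that the ceramide carries. Cers2 makes ceramides with very long acyl chains, from fatty acids that elongases such as Elovl1 and Elovl7 lengthen. Aspa splits N-acetylaspartate, made by neurons, and so frees acetate for lipid synthesis. In lysosomes Arsa takes the sulfate off sulfatide and Galc takes the galactose off galactosylceramide; loss of these enzymes causes metachromatic leukodystrophy and Krabbe disease. Ugcg adds glucose in place of galactose and so starts the glycolipids of neurons and many other cells.

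The table holds 2 units. WT columns are whole-number counts, with 10612290 to 14041951 counts per library, and TG columns are values on a log2 scale that fit log2(FPKM + 1), where FPKM is fragments counted per kilobase of transcript and scaled to library size. Steps in the low TG values imply 9150000 to 12920000 reads per library, and the members then rest on about 77 to 881 reads each. The libraries labelled oligodendrocyte also held neuronal RNA: the neuronal gene Snap25 had 9.96 to 10.27 in the TG placebo libraries on the log2(FPKM + 1) scale, beside 9.93 to 11.62 for the myelin gene Mbp. TG placebo replicates 2 and 3 stood apart from the other libraries. Of 8 listed nuclear-retained RNAs (Malat1 among them), 6 had a level in all 9 libraries, and their median was 5.40 and 5.54 in these replicates, against 3.24 in TG placebo replicate 1, 3.19 to 3.95 under NM-101 and 2.92 to 3.61 in WT. In the same order the median of 10 myelin protein genes was 5.87 and 5.63, against 7.24, 5.98 to 6.84 and 6.06 to 7.08. In bulk RNA, fewer cells of a type and less RNA per cell cannot be told apart.

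Promoters were read for 9 members from RefSeq (GRCm38.p6), 13 windows of 250 bases that end just before an annotated start; Fa2h had no entry. Those of 4 members are shown because these genes carry the contrasts below. Ugt8a and Aspa were both low in TG placebo replicates 2 and 3 and in NM-101 replicate 2. Galc and Arsa were high in TG placebo replicates 2 and 3. Each is printed 5′ to 3′ on the strand of the gene, with motif matches in capitals.
Ugt8a: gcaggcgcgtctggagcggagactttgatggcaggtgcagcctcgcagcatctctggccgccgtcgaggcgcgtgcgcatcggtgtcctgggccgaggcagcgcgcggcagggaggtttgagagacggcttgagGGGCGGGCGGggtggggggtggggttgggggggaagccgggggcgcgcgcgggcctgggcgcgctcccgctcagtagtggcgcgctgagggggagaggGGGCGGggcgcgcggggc
Aspa: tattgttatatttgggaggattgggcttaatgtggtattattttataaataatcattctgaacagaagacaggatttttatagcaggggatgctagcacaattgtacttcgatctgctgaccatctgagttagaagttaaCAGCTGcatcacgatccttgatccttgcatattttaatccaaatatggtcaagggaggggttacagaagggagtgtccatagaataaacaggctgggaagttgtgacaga
Galc: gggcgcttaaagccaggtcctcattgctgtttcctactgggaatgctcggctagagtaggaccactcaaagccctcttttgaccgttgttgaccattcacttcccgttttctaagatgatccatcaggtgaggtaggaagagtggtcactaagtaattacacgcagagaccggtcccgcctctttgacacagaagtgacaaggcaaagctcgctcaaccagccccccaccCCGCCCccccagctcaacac
Arsa: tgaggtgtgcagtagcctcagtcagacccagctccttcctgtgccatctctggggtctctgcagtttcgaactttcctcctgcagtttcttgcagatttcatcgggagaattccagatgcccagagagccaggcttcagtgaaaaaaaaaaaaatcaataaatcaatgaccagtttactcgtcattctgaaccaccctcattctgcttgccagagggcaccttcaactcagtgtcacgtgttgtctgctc
The windows lie at chr3:125938653-125938902, chr11:73324638-73324887, chr12:98259460-98259709 and chr15:89477425-89477674, all on the minus strand. The Aspa window lies inside the RefSeq span of the gene, before a start within it. Exons of Galc and Arsa overlap exons of Gm47439 and C230037L18Rik on the opposite strand, and whether their windows do was not checked. The windows of Ugt8a and Aspa, which shared those low libraries, differed in composition: Ugt8a held 32 CpG dinucleotides at 76.8% G and C, and Aspa held 2 at 38.8%. Galc held 9 CpG and Arsa 4, and the median over 32851 promoters was 6. The search covered both strands for GGGCGG (a GC box), CAGCTG (an E-box, the same on both strands), CTGGNAC (the pattern of Myrf) and the SOX core as ACAAAG or ACAATG. Ugt8a held 3 matches of GGGCGG, of which 2 overlap each other at 116 to 107 bases before the start, and Galc held 1. Aspa held 1 CAGCTG at 110 to 105 bases before the start, and Arsa held none of the 5 letter patterns. Of all promoters 32.7% held GGGCGG, 13% CAGCTG, 16.1% CTGGNAC, 16.5% ACAAAG and 10.7% ACAATG. In Gal3st1, 2 windows of shifted starts share 1 ACAATG. A match is a description of the letters and not a binding site.

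In the WT libraries the enzyme genes had between 98 and 1074 counts each, and together 3504, 3625 and 3389 counts. In CPM, the usual unit of counts scaled to the library total, this is 330.2, 258.2 and 287.8. The gene with the most counts was Ugcg, with 792, 1074 and 822 counts, or 73.6 ± 3.44 CPM (SD, n = 3). Ugt8a had 475, 580 and 572 counts (44.9 ± 3.64 CPM) and Cers2 583, 516 and 524 (45.4 ± 9.13 CPM). The fewest counts were those of Elovl1, with 121, 98 and 118 (9.47 ± 2.26 CPM), and Gal3st1, with 128, 187 and 124 (11.97 ± 1.395 CPM).

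The WT libraries agreed closely for some members and poorly for others. Ugt8a, Galc and Ugcg had a coefficient of variation of 8.11%, 7.51% and 4.68%, not far above the 4.29%, 6.21% and 3.34% that counting error alone gives at their mean counts. Fa2h, with 317, 221 and 324 counts, had 31.1% against 5.90% from counting. Aspa had 291, 217 and 267 counts, which gave 27.6% against 6.22%. For both genes WT replicate 2, the deepest library, held the fewest counts, at 15.7 CPM for Fa2h and 15.45 CPM for Aspa. Elovl7 stood out in another library, with 289, 184 and 153 counts (46.1% against 6.92%), so WT replicate 1 was 2.10 times the lowest library in CPM. Galc had 248, 287 and 244 counts and Arsa 260, 261 and 241, so the breakdown genes varied less than Fa2h, Aspa or Elovl7.

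**Figure D1:**
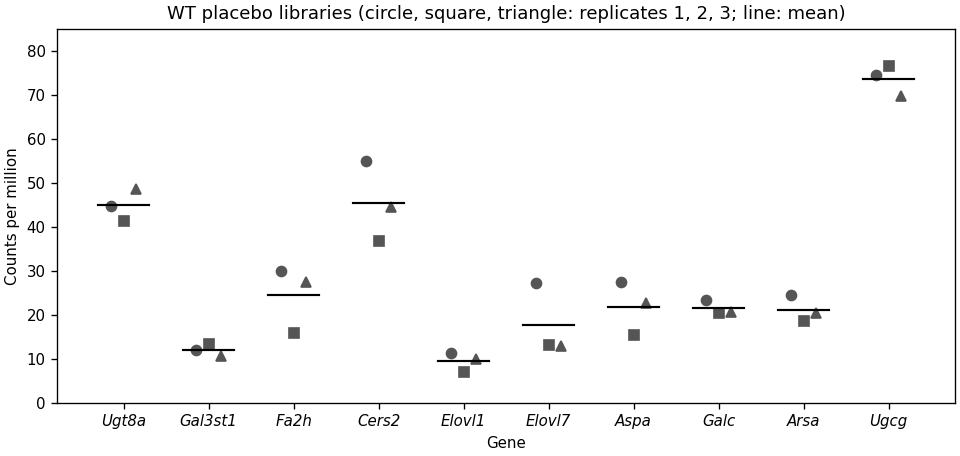
CPM (y axis) of the 10 enzyme genes (x axis) in the 3 WT placebo libraries, with the mean as a line. Ugcg is highest at a mean of 73.6, and Fa2h and Aspa have their lowest point in replicate 2 (15.7 and 15.45).

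Levels of different genes are compared below per transcript length, on the log2(FPKM + 1) scale (rebuilt from counts in WT, as deposited in TG). Reads from the 3' end need not grow with transcript length, so the order between genes depends on this division. In WT CPM, without it, Ugcg came first (73.6), then Cers2 (45.4), Ugt8a (44.9), Fa2h (24.4) and Aspa (21.9). By mean level in WT, Cers2 was first at 4.41 ± 0.28 (SD, n = 3), followed by Ugcg (4.27 ± 0.06), Aspa (3.899 ± 0.39), Ugt8a (3.70 ± 0.11), Fa2h (3.39 ± 0.45), Gal3st1 (2.97 ± 0.13), Arsa (2.81 ± 0.17), Galc (2.72 ± 0.09), Elovl1 (2.64 ± 0.32) and Elovl7 (2.38 ± 0.50). The libraries of every neighbouring pair in this WT order overlapped. Cers2, Ugcg and Elovl7 kept the first, second and last places by mean in TG placebo and TG NM-101. Arsa moved from the seventh place in WT to the third in TG placebo, and Ugt8a from the fourth to the seventh, but from the third place down all neighbours in TG placebo overlapped. Under NM-101 Arsa was again the seventh and Ugt8a the fifth.

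The genes that make galactosylceramide and sulfatide were all low in TG placebo replicates 2 and 3 and in NM-101 replicate 2. Ugt8a (chromosome 3, 125865272 to 125938682, GRCm38) had levels of 3.70, 3.59 and 3.81 in WT replicates 1 to 3, and 3.70, 2.56 and 2.64 in TG placebo replicates 1 to 3. Under NM-101 it had 3.61, 2.55 and 3.13. TG placebo replicate 1 lay at the WT level, and replicates 2 and 3 together lay 1.10 below the WT mean. This is a ratio of 0.467 in FPKM + 1, not in FPKM itself. The 3 groups overlapped, because replicate 1 of each TG group stayed inside the WT range.

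Fa2h (chromosome 8, 111345138 to 111393821) had 3.70, 2.87 and 3.59 in WT, 3.66, 2.79 and 2.82 in TG placebo, and 3.64, 2.60 and 3.17 under NM-101. In the TG libraries it stood in the same order as Ugt8a, but its WT replicate 2 was nearly as low as the low TG libraries. Gal3st1 (chromosome 11, 3983636 to 3999328) had a narrower span, with 2.99, 3.09 and 2.84 in WT, 3.14, 2.73 and 2.65 in TG placebo, and 2.92, 2.55 and 2.80 under NM-101. Its reads are spread over 3 RefSeq rows that did not keep their shares: 1 row went from 2.69 in TG placebo replicate 1 to a listed 0 in NM-101 replicate 3, where another had 2.61. The rows are summed here, because reads from the 3' end may not tell them apart.

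**Figure D2:**
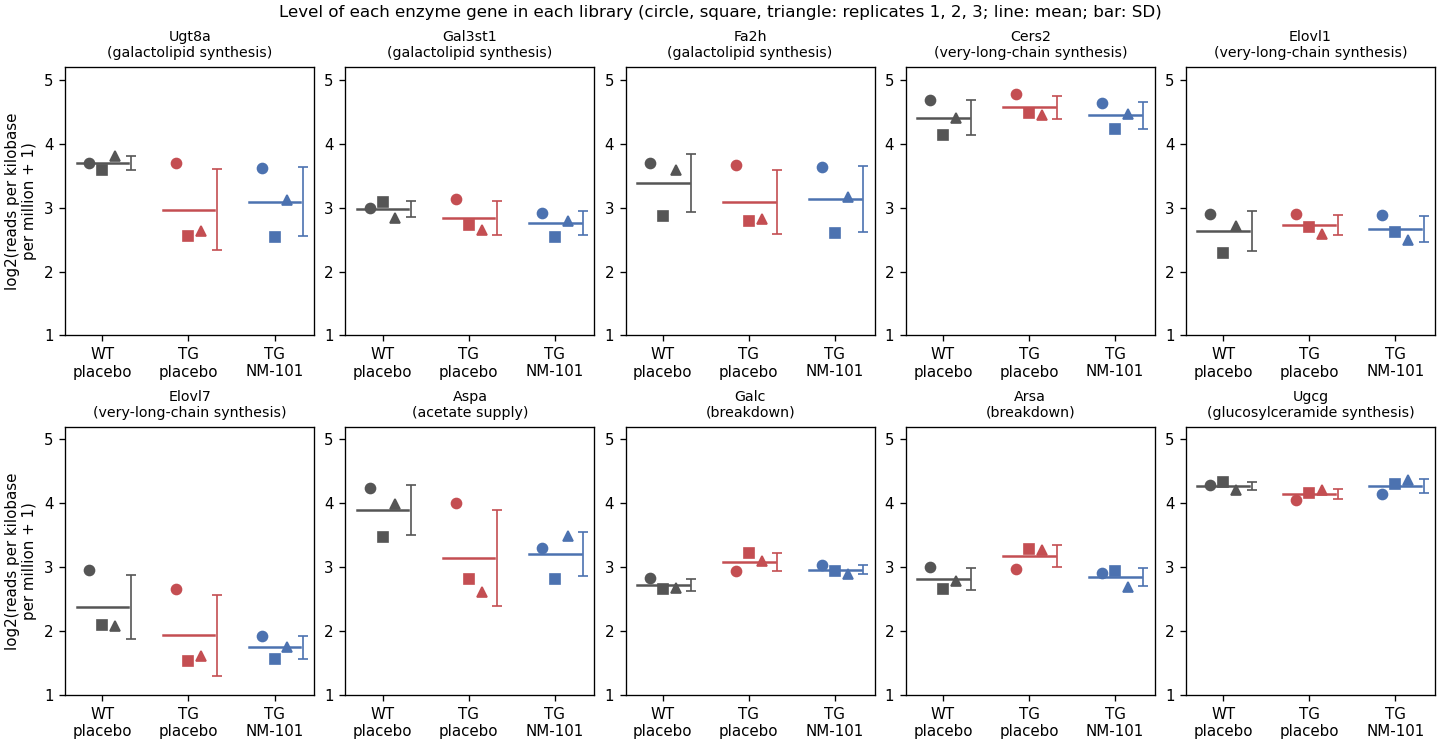
Level of each enzyme gene (y axis, log2(FPKM + 1) scale) in each of 9 libraries, with group means as lines and SD as bars (n = 3). In Ugt8a the TG placebo circle (3.70) lies at the WT level and the square and triangle (2.56 and 2.64) lie below all WT points.

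Of the very-long-chain enzymes, Elovl7 was low in TG placebo replicates 2 and 3, as Ugt8a was, while Cers2 and Elovl1 stayed near WT. In NM-101 replicate 1 Elovl7 lay below every WT library and Ugt8a did not. Elovl7 (chromosome 13, 108214326 to 108287109) had 2.96, 2.09 and 2.08 in WT, 2.66, 1.52 and 1.62 in TG placebo, and 1.92, 1.56 and 1.76 under NM-101. All 3 NM-101 libraries lay below every WT library for this gene, and of the 12410 genes set beside WT 13.1% did so. Cers2 (chromosome 3, 95314771 to 95323599) had 4.69, 4.14 and 4.40 in WT, 4.78, 4.48 and 4.45 in TG placebo, and 4.64, 4.23 and 4.46 under NM-101. Elovl1 (chromosome 4, 118426874 to 118432953) had 2.91, 2.29 and 2.71 in WT, 2.89, 2.69 and 2.59 in TG placebo, and 2.89, 2.62 and 2.49 under NM-101. Its levels are sums of 3 RefSeq rows. In NM-101 replicate 2 its main row had 2.10, below the 2.77, 2.26 and 2.71 of that row in WT. A row at 0 in every WT library had 1.52 there. For the summed levels of Cers2 and Elovl1 the groups overlapped, and the group means differed by less than 1 SD of the WT libraries. The elongases therefore parted within the TG libraries: Elovl1 minus Elovl7 was 0.97, 1.05 and 0.74 under NM-101, above the WT values of -0.05, 0.20 and 0.62, while the TG placebo values of 0.24, 1.17 and 0.98 overlapped WT.

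Aspa (chromosome 11, 73304987 to 73326876) had the widest span of all 10 genes in TG placebo. Its levels were 4.24, 3.47 and 3.98 in WT and 4.00, 2.82 and 2.61 in TG placebo. Under NM-101 they were 3.30, 2.82 and 3.49. TG placebo replicates 2 and 3 lay 1.18 below the WT mean (a ratio of 0.440 in FPKM + 1), and replicate 1 lay 0.10 above it. Unlike Ugt8a and Fa2h, Aspa was not highest in NM-101 replicate 1 among the NM-101 libraries.

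Of the lysosomal breakdown genes, Galc was higher than WT in every TG library and Arsa in TG placebo replicates 2 and 3. Galc (chromosome 12, 98202287 to 98259459) had 2.83, 2.66 and 2.68 in WT, 2.94, 3.22 and 3.09 in TG placebo, and 3.04, 2.94 and 2.90 under NM-101. All 6 TG libraries lay above every WT library, and 13.7% of the 12410 genes did the same. The mean in TG placebo was 0.36 above WT, a difference that 20.6% of 8664 genes with a single row in the table equalled or passed. Such a difference is therefore common among these genes. An offset between the transcript lengths used for WT and for TG would move all TG libraries alike and cannot be told apart from the genotype.

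Arsa (chromosome 15, 89472476 to 89477424) had 3.00, 2.66 and 2.78 in WT, 2.97, 3.28 and 3.26 in TG placebo, and 2.90, 2.94 and 2.69 under NM-101. TG placebo replicates 2 and 3 lay above every WT library, and the NM-101 libraries lay within the WT range. For Galc and Arsa, as for Cers2 and Elovl1, exons of another gene lie on the opposite strand, and the sources used here do not say whether counting used strand. Ugcg (chromosome 4, 59189507 to 59222833) was the steadiest member, with 4.29, 4.33 and 4.202 in WT, 4.06, 4.16 and 4.21 in TG placebo, and 4.15, 4.31 and 4.36 under NM-101.

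TG placebo was set beside WT placebo to see how the enzyme genes differ with genotype. No test was made between them, because their columns were normalized separately, and the values describe these libraries. Of the 10 members, 6 had a lower mean in TG placebo and 4 a higher one, with a median log2 difference of -0.13, while 43.6% of all genes were lower and their median was 0.05. Galc alone had no overlap between TG placebo and WT, against 36.7% of all genes (20.8% higher and 15.9% lower). With all 6 TG libraries it was again 1 member, against 22.8% of all genes. The means hide a split between the TG placebo libraries. In replicates 2 and 3, 5 members (Ugt8a, Gal3st1, Fa2h, Elovl7 and Aspa) lay below every WT library, as did 24.8% of all genes, and 2 members (Galc and Arsa) lay above every WT library, as did 35.4% of all genes. For these 5 members replicate 1 was not below WT, a pattern picked out after the values were seen that 8.82% of all genes shared. With replicate 1 as the only TG placebo library, 1 member, Ugcg, was lower than WT.

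**Figure D3:**
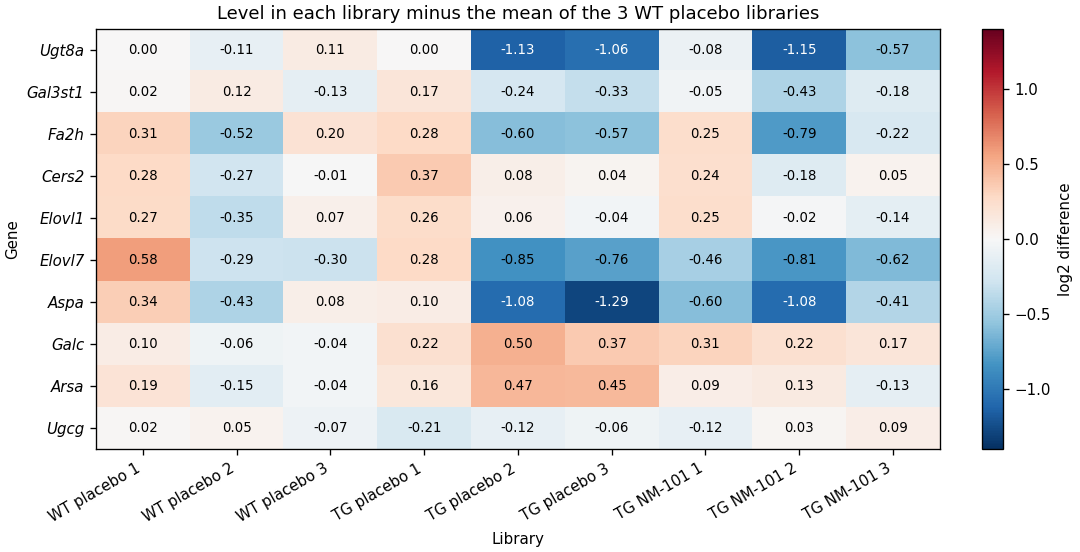
Log2 level of each enzyme gene (rows) in each library (columns) minus the mean of the 3 WT placebo libraries; blue is lower and red is higher. Ugt8a and Aspa are lowest in TG placebo replicates 2 and 3 and in NM-101 replicate 2 (-1.06 to -1.29), where Galc is at 0.22 to 0.50.

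Within TG placebo, 7 of the 10 members were highest in replicate 1, as were 41.3% of all genes, and Galc, Arsa and Ugcg were lowest in it, as were 43.5% of all genes. The span over the 3 TG placebo libraries was 1.39 for Aspa, 1.14 for Ugt8a and 1.13 for Elovl7, and a span above 1 was seen in 4.88% of all genes. Gal3st1 (0.50), Cers2 (0.33) and Elovl1 (0.30) spanned less. The nuclear-retained RNAs and the myelin protein genes given above moved with the same libraries. The median of 5 choroid plexus genes also set replicate 1 apart, at 4.38 against 0.27 and 0.55. It was 3.51 in WT replicate 1, where Elovl7 was highest, 0.08 and 0.45 in the other WT libraries, and 1.403, 2.70 and 1.16 under NM-101. The part of these 3 gene groups in the differences was not tested.

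Differences between 2 members in the same library were taken for 8 pairs, after their levels had been seen. The scaling of a library cancels in them only in part, because a pseudocount of 1 is added before the log. An offset of transcript length between WT and TG would move them too. Ugt8a minus Galc, synthesis against breakdown of galactosylceramide, was 0.87, 0.93 and 1.13 in WT. It was 0.76, -0.66 and -0.46 in TG placebo, and 0.58, -0.39 and 0.23 under NM-101, and no TG library reached the lowest WT library. This pair joins a gene with low TG libraries to one with high TG libraries, so the gap is a description of those levels. Cers2 minus Ugt8a, which joins 2 synthesis genes, also set all TG libraries apart from WT. It was 0.99, 0.55 and 0.59 in WT, 1.08, 1.92 and 1.81 in TG placebo, and 1.03, 1.68 and 1.33 under NM-101. Gal3st1 minus Arsa, synthesis against breakdown of sulfatide, was -0.01, 0.43 and 0.06 in WT and 0.17, -0.55 and -0.62 in TG placebo. Under NM-101 it was 0.02, -0.39 and 0.11, and the 3 groups overlapped. Ugt8a minus Ugcg (-0.60, -0.74 and -0.40 in WT, -0.36, -1.59 and -1.57 in TG placebo) and Galc minus Arsa (-0.18, 0.0025 and -0.10 in WT, -0.03, -0.06 and -0.17 in TG placebo) also overlapped. Fa2h minus Ugt8a was tight under NM-101 (0.03, 0.05 and 0.04) and wide in WT (0.0021, -0.72 and -0.22).

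**Figure D4:**
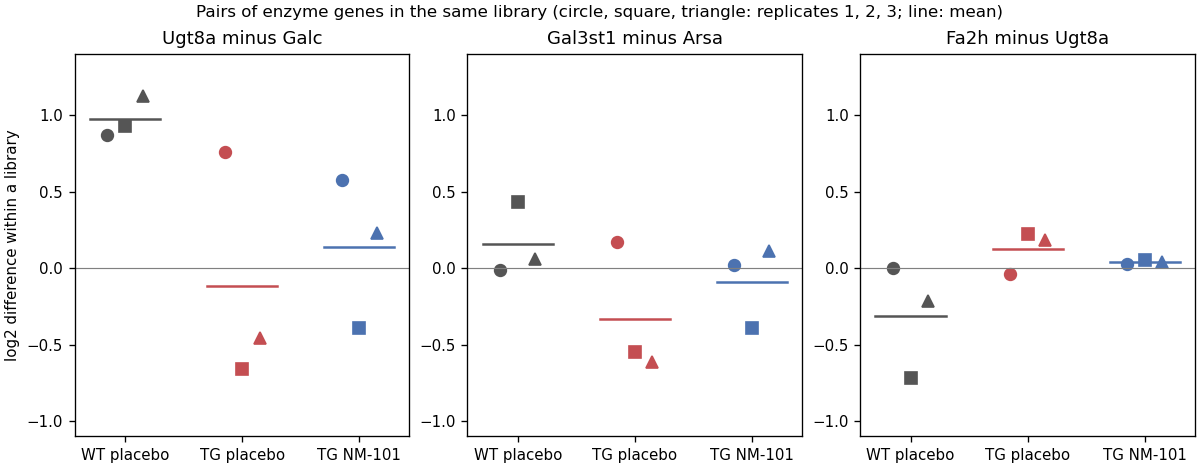
Log2 difference between 2 enzyme genes in the same library (y axis), for 3 pairs, with group means as lines (n = 3). For Ugt8a minus Galc the WT points lie at 0.87 to 1.13 and the TG points at -0.66 to 0.76.

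Set against the median of the 10 myelin protein genes in the same library, the difference between TG placebo and WT was -0.31 for Ugt8a and -0.33 for Aspa, beside -0.73 and -0.76 without that step, and 0.13 for Fa2h, beside -0.30. The value of Ugt8a minus that median was -2.97 ± 0.44 in WT, -3.28 ± 0.28 in TG placebo and -3.28 ± 0.13 under NM-101 (SD, n = 3). For Fa2h it was -3.28 ± 0.18, -3.16 ± 0.39 and -3.24 ± 0.12, and for Aspa -2.77 ± 0.29, -3.10 ± 0.12 and -3.17 ± 0.36. None of these separated the groups. For Galc it was -3.95 ± 0.51 in WT and -3.16 ± 0.99 in TG placebo, and for Arsa -3.86 ± 0.45 and -3.08 ± 1.04, with TG placebo replicates 2 and 3 between -2.64 and -2.37. In all, 3 of 10 members (Ugt8a, Elovl7 and Aspa) had a lower mean than WT on this scale.

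In TG NM-101, 6 members had a lower mean than WT and 4 a higher one, with a median of -0.11, beside 40.6% of all genes lower and a median of 0.05. Of the members 2 had no overlap with WT (Galc higher, Elovl7 lower), against 36.6% of all genes, with 23.5% higher. Aspa differed by -0.70, Elovl7 by -0.63 and Ugt8a by -0.60. Fa2h differed by -0.25, Gal3st1 by -0.22 and Galc by 0.23. Arsa (0.03), Cers2 (0.04) and Elovl1 (0.03) lay close to the WT mean, and with median-ratio scaling 9 of 10 members were lower than WT. Both TG groups are set against the same WT libraries, and no likeness between their differences is read from this.

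The TG groups differ in the agent given, NM-101 or placebo. None of the 10 members passed limma at an adjusted p of 0.05, and of all 12699 genes tested 0.134% passed. At an unadjusted p under 0.05 there was 1 member, Arsa, against 14.8% of all genes, and 4.17% in its direction. The members were 4 higher and 6 lower, with a median difference of -0.07, and 44.5% of all genes were lower, with a median of 0.03.

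Arsa had the largest difference, from 3.17 ± 0.17 under placebo to 2.84 ± 0.14 under NM-101 (SD, n = 3), or -0.33 with a standard error of 0.14. Its limma p was 0.0412 and its adjusted p 0.315. Each NM-101 library lay below each placebo library, which held in the lower direction for 5.98% of all genes and in either direction for 19.6%. Without TG placebo replicate 1 the difference was -0.43 and passed limma with an adjusted p of 0.0392, in a fit where 17.9% of all genes passed, 8.17% of all genes in the lower direction. Over all alternatives the adjusted p ran from 0.0392 to 0.884. Galc differed by -0.13 (95% interval -0.41 to 0.15) and Ugcg by 0.13 (-0.10 to 0.36).

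The synthesis genes did not change detectably, and their spread left wide intervals. Ugt8a differed by 0.13 (95% interval -0.79 to 1.05, limma adjusted p = 0.901), Fa2h by 0.05 (-0.72 to 0.81) and Aspa by 0.06 (-0.86 to 0.98). Elovl7 differed by -0.18 (-0.85 to 0.49). A fall or rise of up to about these bounds is not excluded for the 4 genes. Intervals were narrower for Cers2 at -0.13 (-0.44 to 0.18), Gal3st1 at -0.08 (-0.47 to 0.30) and Elovl1 at -0.06 (-0.40 to 0.28). The direction for Ugt8a, Fa2h and Aspa rested on single libraries: without TG placebo replicate 1 the differences were 0.50, 0.33 and 0.49, and with it as the only TG placebo library they were -0.60, -0.53 and -0.80. For Elovl7 these settings gave 0.18 and -0.91 (limma adjusted p = 0.463 and 0.0982).

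**Figure D5:**
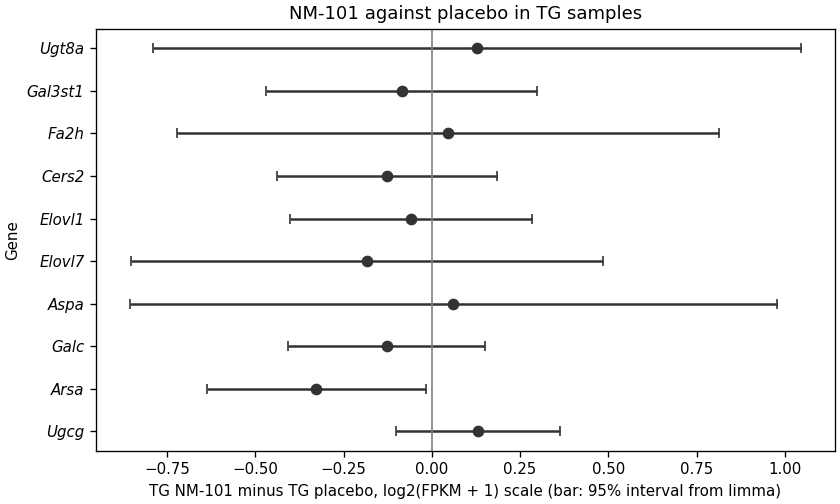
Difference of TG NM-101 minus TG placebo for each enzyme gene (x axis, log2(FPKM + 1) scale) with its 95% interval from limma. Arsa, at -0.33, has the only interval that lies wholly on one side of 0, and its adjusted p is 0.315.

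Other genes of these pathways were read from 5 lists, and none of their tested members passed limma over all genes. Their counts at an unadjusted p under 0.05 stand beside 14.8% of all genes. Ceramide synthesis genes, from serine palmitoyltransferase to the other ceramide synthases, had 7 higher and 6 lower of 13 under NM-101 (median 0.02), and 2 at an unadjusted p under 0.05, both lower. These were Cers5, from 3.71 ± 0.0059 to 3.39 ± 0.03, and Cers4, from 3.56 ± 0.35 to 2.96 ± 0.21 (SD, n = 3), ceramide synthases that prefer shorter chains than Cers2, with limma adjusted p of 0.196 and 0.214. Sptssa, a small subunit of serine palmitoyltransferase, differed by 0.29, and Degs1, the desaturase that completes ceramide and the highest of the list, by 0.21. Fatty acid synthesis and elongation genes had 14 higher and 4 lower of 18 (median 0.12) and none at an unadjusted p under 0.05. Tecr, the last enzyme of the elongation cycle, differed by -0.21, the desaturase Fads1 by 0.21 and the desaturase Scd2, the highest of the list by mean over the TG libraries, by 0.29.

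Peroxisomal genes of very-long-chain and ether lipids had 5 higher and 6 lower of 11 (median -0.0067). Pex7, an import receptor, differed by 0.25 and Hsd17b4, an enzyme of peroxisomal fatty acid breakdown, by 0.21. Genes of glucosylceramide, ganglioside and sphingomyelin synthesis had 6 higher and 3 lower of 9 (median 0.03). The sialyltransferases St8sia1 (0.44, limma adjusted p = 0.158) and St3gal2 (0.28) were the 2 at an unadjusted p under 0.05, both higher; B4galnt1 differed by -0.14 and St3gal5, the highest, by 0.0088.

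Sphingolipid breakdown genes had 7 higher and 10 lower of 17 (median -0.09), and 3 of those lower had an unadjusted limma p under 0.05. Gba2, a glucosylceramidase outside the lysosome, differed by -0.43, Acer2, an alkaline ceramidase, by -0.45, and Psap, the precursor of the saposins that Galc and Arsa need and the highest of the list, by -0.26. In each of these 3 genes all NM-101 libraries lay below all placebo libraries, as in 5.98% of all genes. Markers of microglia, another cell type of the tissue, were higher under NM-101 in 7 of 7 (median 0.37), as were those of astrocytes in 7 of 7 (median 0.38), and those of endothelium were lower in 5 of 5 (median -0.31). None of these markers passed limma, with 6, 5 and 2 at an unadjusted p under 0.05, and their part in these differences was not tested.

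The genes whose TG levels were most like Ugt8a were ranked by Pearson correlation over the 6 TG libraries, as a description of these libraries. Of 7547 genes ranked, 171 (2.27%) had r above 0.9. The first 6 were Plin3, a coat protein of lipid droplets (r = 0.997), Bud31, a splicing factor (0.993), Car2, a carbonic anhydrase of oligodendrocytes and other cells (0.991), Pacs2 (0.991), Tmem88b (0.986) and Cpox, an enzyme of haem synthesis (0.986). Without TG placebo replicate 1 and NM-101 replicate 1, the libraries farthest from the median of Ugt8a, r was between 0.935 and 0.993 for these 6. Among the members Fa2h was nearest (r = 0.991, Spearman's rho 1.0, and r = 0.946 without those libraries), then Gal3st1 (0.917), Aspa (0.878), Cers2 (0.856), Elovl7 (0.847) and Elovl1 (0.704). For Cers2 and Elovl1 it rested on those libraries, since r was 0.380 and -0.894 without them. Galc (-0.436), Ugcg (-0.482) and Arsa (-0.516) had a negative r, which for Ugcg turned to 0.712 without those libraries. The r of Elovl1 is that of a sum of 3 RefSeq rows. A lesser row had 1.52 in NM-101 replicate 2, 0.57 in TG placebo replicate 3 and 0 in the other TG libraries. The r of the main Elovl1 row alone was not taken.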

How the data were processed

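RNA of 9 mouse brain samples was measured with QuantSeq 3' libraries, per the labels' protocols. Bowtie2 and the genome build mm10 are named in the submitters' processing notes; for the counting program, its strand setting and the normalization, the sources used here name nothing. A single table was deposited by the authors, of 33299 RefSeq rows, with whole-number counts in the WT columns and, read from the values, log2(FPKM + 1) in the TG columns. Values were unlogged and added up by gene symbol (32394 rows were named from RefSeq GRCm38.p6) and logged with a pseudocount of 1. WT counts were divided by library total and by GENCODE M21 transcript length. Depth in the TG columns was read from steps in low values, of which 77.1% to 83.3% lay within 0.2 of a whole read.

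TG NM-101 and TG placebo were compared with limma 3.58.1 in R 4.3.3 (variance trend, robust shrinkage) over 12699 genes with a mean of at least 1, with Benjamini-Hochberg adjustment over all of them; the fit was tested on simulated data. Whether each sample is another animal is not in the labels, and a p-value here therefore covers only how these samples vary, possibly for technical reasons. The members, lists and tests were chosen with earlier results of these data known. The genes named are all members, the 3 smallest p-values and the highest level in each pathway list, and the 6 genes most like Ugt8a; Mbp, Snap25 and Malat1 are reference genes, and single features named beyond these were picked after their values were seen. Some genes that this rule names are not reported here. Alternatives covered pseudocount, filter, scaling, single rows, shrinkage, a replicate block and each library left out. Over all genes tested, same-numbered samples did not deviate together (correlations of 0.04, -0.03 and -0.02).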

Additional observations from a re-analysis of the deposited data

How the results depend on the processing

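None of the 10 members passed in the limma fit or under 13 of its 14 alternatives; the exception was 1 member, Arsa, without TG placebo replicate 1, where 2269 of 12699 genes (17.9%) passed, so the count of members ran from 0 to 1 when single libraries were left out. The count of 17 genes passing over all genes was 17 with a pseudocount of 0.1, 3 with a replicate block, 4 without a filter, with median-ratio scaling or without trend and robust shrinkage, 0 without genes at 0 in any sample (1894 at an unadjusted p under 0.05, by limma), 7 with each RefSeq row on its own, 2 to 2269 with 1 library left out, and 109 with TG placebo replicate 1 as the only TG placebo library, an alternative added after seeing the data in which the lone sample is assumed to vary like the other group. The block changed no call of a member, and over all genes tested the numbers did not pair the samples. The block lowered the standard error from 0.38 to 0.16 for Ugt8a and from 0.33 to 0.15 for Fa2h. It raised the standard error a little for Galc, Arsa and Ugcg and lowered it for the other members. With 1 library left out, the NM-101 difference ran from -0.13 to 0.50 for Ugt8a, -0.21 to 0.33 for Fa2h, -0.20 to 0.49 for Aspa, -0.18 to 0.066 for Gal3st1, -0.17 to 0.029 for Elovl1 and -0.39 to 0.18 for Elovl7, so the sign of these 6 changed. With TG placebo replicate 1 alone it was -0.60, -0.53 and -0.80 for Ugt8a, Fa2h and Aspa, 0.016 for Galc and -0.91 for Elovl7 (limma adjusted p = 0.0982), against -0.18 with all libraries. The cause was not tested. The number of members below WT was 6 to 7 in TG placebo and 5 to 8 in TG NM-101 with 1 library left out, and 1 in TG placebo with replicate 1 alone; median-ratio scaling gave 6 and 9. Relative to myelin protein genes it was 2 to 5 (5 without TG placebo replicate 3) and 10 with replicate 1 alone. The summed WT level was 273 to 309 CPM with 1 library left out. Depth limits Elovl1, Elovl7, Gal3st1 and Aspa most, whose lowest TG library held 77, 87, 89 and 94 implied reads.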
